A study of Rattus norvegicus with 28 samples.

Results

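Newborn rat pups that had been fed formula and stressed by hypoxia for 3 or 4 days were compared with unfed newborn pups, gene by gene, in the terminal ileum. The arrays were chosen by their titles, which put 3 on day 3 and 3 on day 4 of formula and hypoxia (6 in all) and 4 in the unfed group, out of 28 arrays in the series. Each array held total RNA of a single pup's terminal ileum on an Affymetrix rat array. Pups of the formula and hypoxia group were formula-fed and received hypoxic stress 3 times a day until they were killed on day 3 or 4 of life, and unfed pups were newborns with no feeding, titled day 0. A further 6 arrays of breast-fed pups of day 3 and 4 served as a second comparison. The labels used here give no strain, sex or litter and no genetic change for any group. Formula and hypoxia were always given together, and age differed as well between late formula and hypoxia pups and unfed pups, so the parts of formula, hypoxia and age in any difference cannot be told apart. Nothing in the labels says that the pups came from separate litters, and the p-values measure only the spread between these arrays.

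The combination of formula and hypoxia in newborn rats is a laboratory model of necrotizing enterocolitis, a disease of the immature bowel in which the lining of the ileum or colon becomes inflamed and dies. The ileal lining consists of absorptive enterocytes, mucus-secreting goblet cells, hormone cells and, at the base of the crypts, Paneth cells, over a core of fibroblasts, blood vessels, nerve cells and immune cells and an outer coat of smooth muscle. In the days after birth the rat ileum takes up whole proteins and fat from milk and its epithelium matures. Because each array measured a piece of whole tissue, fewer cells of a type and less RNA per cell cannot be told apart.

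The unit of all levels below is the array signal, a brightness on a linear scale after quantile normalisation, and signals of different genes are not compared. A difference is the mean of day 3 and day 4 minus the mean of unfed arrays on the log2(signal + 8) scale, and each fold change is on that scale, which understates the change of dim genes. A gene was called when its adjusted p was under 0.05 (limma over 8740 probe sets, Benjamini-Hochberg adjustment, two-sided). For genes with several probe sets the one with the highest mean was used. Among the genes described and called here, 59 had 87 other probe sets, of which 33 were called in the same direction, 52 were not called and 2 (of Lamp1 and Rps15) were called in the opposite direction. The signals carry no detection calls, and the number of arrays limits the precision: the median standard error over 4736 genes was 0.26 on the log2 scale.

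Late formula and hypoxia arrays differed from unfed arrays at 1014 of 8740 probe sets, which is 11.6%, with 465 higher (5.32%) and 549 lower (6.28%). In genes, 312 of 4736 were called higher (6.59%) and 335 lower (7.07%), and 345 of the 647 called genes (13.7% of all) differed by more than 2-fold. In 515 genes (10.9%) the 6 late formula and hypoxia arrays did not overlap with the 4 unfed arrays, 270 higher (5.70%) and 245 lower (5.17%). The median difference over all genes was 0.02 on the log2 scale. At the deposited scaling, which moves the median of all probe sets by 0.23, the split was 1014 higher and 394 lower, and with all arrays brought to a common median it was 355 higher and 727 lower. Samples were registered in 2 runs of accession numbers, which may or may not mark array processing. Run 1 held 5 late formula and hypoxia arrays and 1 unfed array, and run 2 held 1 late formula and hypoxia array (day 4 replicate 3) and 3 unfed arrays. With the run as a term in the fit 774 probe sets (8.86%) were called, 383 higher and 391 lower, and 704 (8.05%) were called both ways with the same sign. In genes the run as a term gave 500 calls (10.6%), 5.36% of all genes higher and 5.19% lower. Unfed replicate 2 correlated less with its own group (0.934) than the other unfed arrays did (0.954 to 0.961). Its median correlation with the late formula and hypoxia arrays was 0.935, whereas each other array of both groups correlated more with its own group. With unfed replicate 2 left out, 1191 probe sets were called (527 higher and 664 lower), and without unfed replicate 3 the count was 588. Among the breast-fed arrays, day 3 replicate 3 and day 4 replicate 2 stood apart. Of 771 probe sets with a median above 500 on the remaining arrays, they had 70 and 49 that were over 16-fold dimmer than that median, against 0 to 2 on each of the other 26 arrays. Both arrays enter the comparison with unfed arrays through the shared estimate of the spread, the joint quantile normalisation and the choice of probe set per gene. With both left out of the fit, but not of the normalisation or that choice, 1189 probe sets were called (559 higher and 630 lower). In genes 7.79% were then higher and 7.98% lower. Median signals before normalisation were 37.9 to 48.1 in late formula and hypoxia arrays and 25.8 to 42.6 in unfed arrays (exact permutation test, two-sided p = 0.0476, 0.238 after adjustment over 5 measures, smallest possible p 0.00952). The GAPDH 3′ to 5′ ratio, a sign of RNA integrity, was 1.09 to 1.498 in late formula and hypoxia arrays and 0.991 to 1.45 in unfed arrays (exact permutation p = 0.371). The control probe set BioB-5, before normalisation, was at 113 to 228 in late formula and hypoxia arrays and 174, 6.49, 46.8 and 127 in unfed replicates 1 to 4. For the control CreX-3 the values were 5607 to 10822 and 7275, 1320, 2806 and 7290. Unfed replicates 2 and 3 were thus lowest for both, and these controls were not tested.

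The tissue label was checked against marker genes. None of the 6 measured enterocyte, 3 goblet and 4 ileal markers stayed under a signal of 50 on all 10 arrays. The ileal markers Fabp6, Slc10a2, Gucy2c and Enpep had a summed signal of 1913 to 4397 in late formula and hypoxia arrays and 1365 to 2044 in unfed arrays. Of 10 exocrine pancreas markers, 7 stayed under 50 on all 10 arrays, as did 4 of 9 liver and 4 of 5 stomach markers. Of the Paneth cell markers, Defa5 and Pla2g2a were under 50 on every array.

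In 248 genes (138 higher and 110 lower) the groups did not overlap, the call held with and without the run term and the mean signal was at least 100 in the higher group. The largest differences of these, 14 on each side, are called the 28 leading genes here. On the higher side they were Cyp3a9, Clca4, Lgals3, Muc2, Pmepa1, Itgb4, Apob, Lcn2, Jun, Ccnd2, Map3k12, Dmbt1, Abcc2 and Hmox1. On the lower side they were Anapc15, Ccl11, Spp1, Vch, Mcpt1, Rpa3, Eif3m, Hsd17b2, Tcf21, Dbi, Mrps14, Tvp23b, LOC102547700 and Ppil3. Their adjusted p-values ran from 1.69e-05 to 0.0261. Because the groups do not overlap by choice, the sign of each within a run or a day is fixed and carries no further information.

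**Figure D1:**
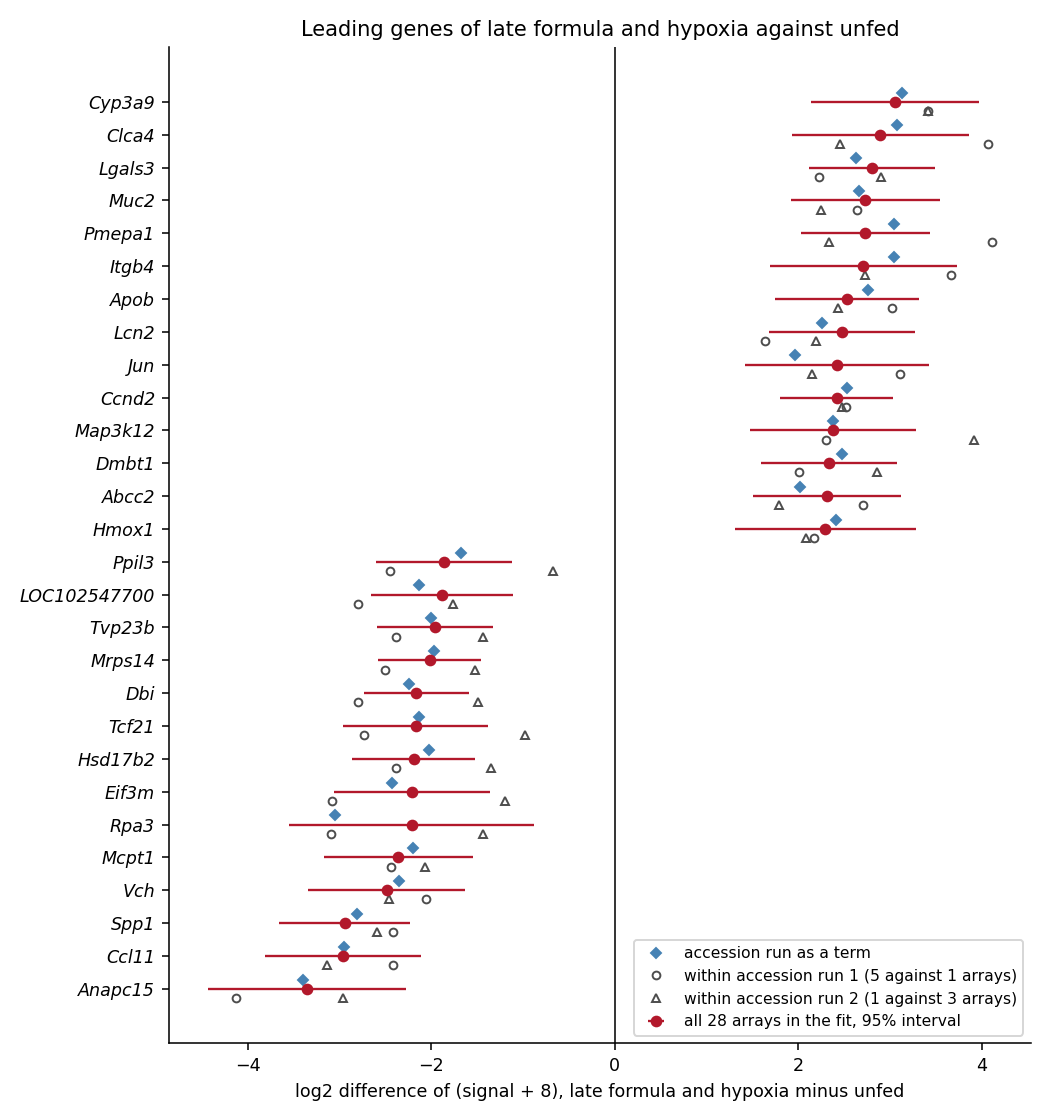
Log2 difference, late formula and hypoxia minus unfed, of the 28 leading genes (horizontal axis, log2 of signal + 8), with higher genes above lower genes. Filled points are the fit over all arrays with 95% confidence intervals, diamonds the fit with the accession run as a term, and hollow markers the differences within run 1 and within run 2. The values over all arrays run from 3.05 for Cyp3a9 to -3.36 for Anapc15, and the choice of genes whose groups do not overlap fixes the sign within each run.

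Cyp3a9, a cytochrome P450 of the drug and steroid oxidising family, was the gene with the largest rise among the leading genes. Its signal ran from 349.9 to 1377 with a median of 736 in late formula and hypoxia arrays, against 54.3, 136, 74.7 and 58.9 in unfed replicates 1 to 4. Every late formula and hypoxia array was above every unfed array. The rise was 8.29-fold (95% CI 4.41 to 15.6, limma adjusted p = 9.26e-05), with log2 differences of 2.82 on day 3 and 3.29 on day 4.

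Secretory genes were higher in part. Of 15 measured genes of goblet, Paneth and secretory cells, 6 were called higher (40%, against 6.59% of all genes) and 0 lower. Their median log2 difference was 0.29. Muc2, the gel-forming mucin of goblet cell mucus, had signals of 778 to 2662 (median 1122) in late formula and hypoxia arrays and of 211, 73.4, 216 and 258 in unfed arrays. The groups did not overlap, and unfed replicate 2 was the lowest of all. Muc2 was 6.63-fold higher (95% CI 3.78 to 11.6, adjusted p = 8.79e-05), although its other 2 probe sets, both dim, gave log2 differences of 0.34 and -0.02 that were not called. Clca4, named for the family of calcium-activated chloride channel regulators, reached 3688 to 5737 (median 4709.9) in late formula and hypoxia arrays, against 279, 1737, 506 and 609 in unfed arrays. All late formula and hypoxia arrays again lay above the unfed arrays, of which replicate 2 was the highest, and the rise was 7.43-fold (95% CI 3.81 to 14.5, adjusted p = 0.000235). The membrane mucin gene Muc13 was 4.68-fold higher (adjusted p = 0.00149), with its lowest late formula and hypoxia array at 1339 and unfed replicate 2 at 1728, so the groups overlapped. Muc3, another membrane mucin, was 2.67-fold higher (adjusted p = 0.00911), a call just missed without unfed replicate 3. Klf4, a transcription factor of differentiating epithelium, and St6gal1, a sialyltransferase, were the other called members. Tff3, the trefoil peptide that goblet cells secrete with mucin, was not called, at 2484 to 4741 (median 3281) in late formula and hypoxia arrays and 4814, 2166, 5477 and 5994 in unfed arrays (adjusted p = 0.472). Dmbt1, a mucin-like protein that binds bacteria and is not in that list, rose 5.03-fold (95% CI 3.01 to 8.39, adjusted p = 0.000155), and Lcn2, an iron-binding antimicrobial protein, rose 5.55-fold (adjusted p = 0.000183). Lcn2 was the 1 of 22 measured antimicrobial and acute phase genes that was called (4.55%).

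Adhesion and cytoskeleton genes of the epithelium were the next group. Of 19 measured epithelial junction and adhesion genes, 6 were called higher (31.6%, against 6.59% of all genes) and 0 lower. Their median log2 difference was 0.43, although with a common median the calls were 4 higher and 1 lower. Lgals3, a galactoside-binding lectin made in differentiated epithelium and macrophages, had signals of 3538 to 6792 (median 4612) in late formula and hypoxia arrays and of 1056, 314, 619 and 1009.9 in unfed arrays. The lowest late formula and hypoxia array was above the highest unfed array, and Lgals3 rose 6.95-fold (95% CI 4.32 to 11.2, adjusted p = 1.78e-05). Itgb4, the integrin subunit of hemidesmosomes that anchors epithelium to its basement membrane, rose 6.53-fold (95% CI 3.22 to 13.3, adjusted p = 0.000782), at 182 to 515 in late formula and hypoxia arrays and 18.0, 76.6, 40.7 and 41.6 in unfed arrays. Krt19, a keratin of simple epithelium, was 2.74-fold higher (adjusted p = 0.000148). Its partner Krt8 was 1.82-fold higher (adjusted p = 0.00928, 0.574 with a common median), and the junction genes Jup and Cldn3 were the other called members. Pmepa1, a membrane protein that dampens TGF-beta signalling, was 6.63-fold higher (adjusted p = 2.27e-05), with 180.3 to 461 in late formula and hypoxia arrays and 12.4, 61.2, 41.7 and 88.5 in unfed arrays.

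**Figure D2:**
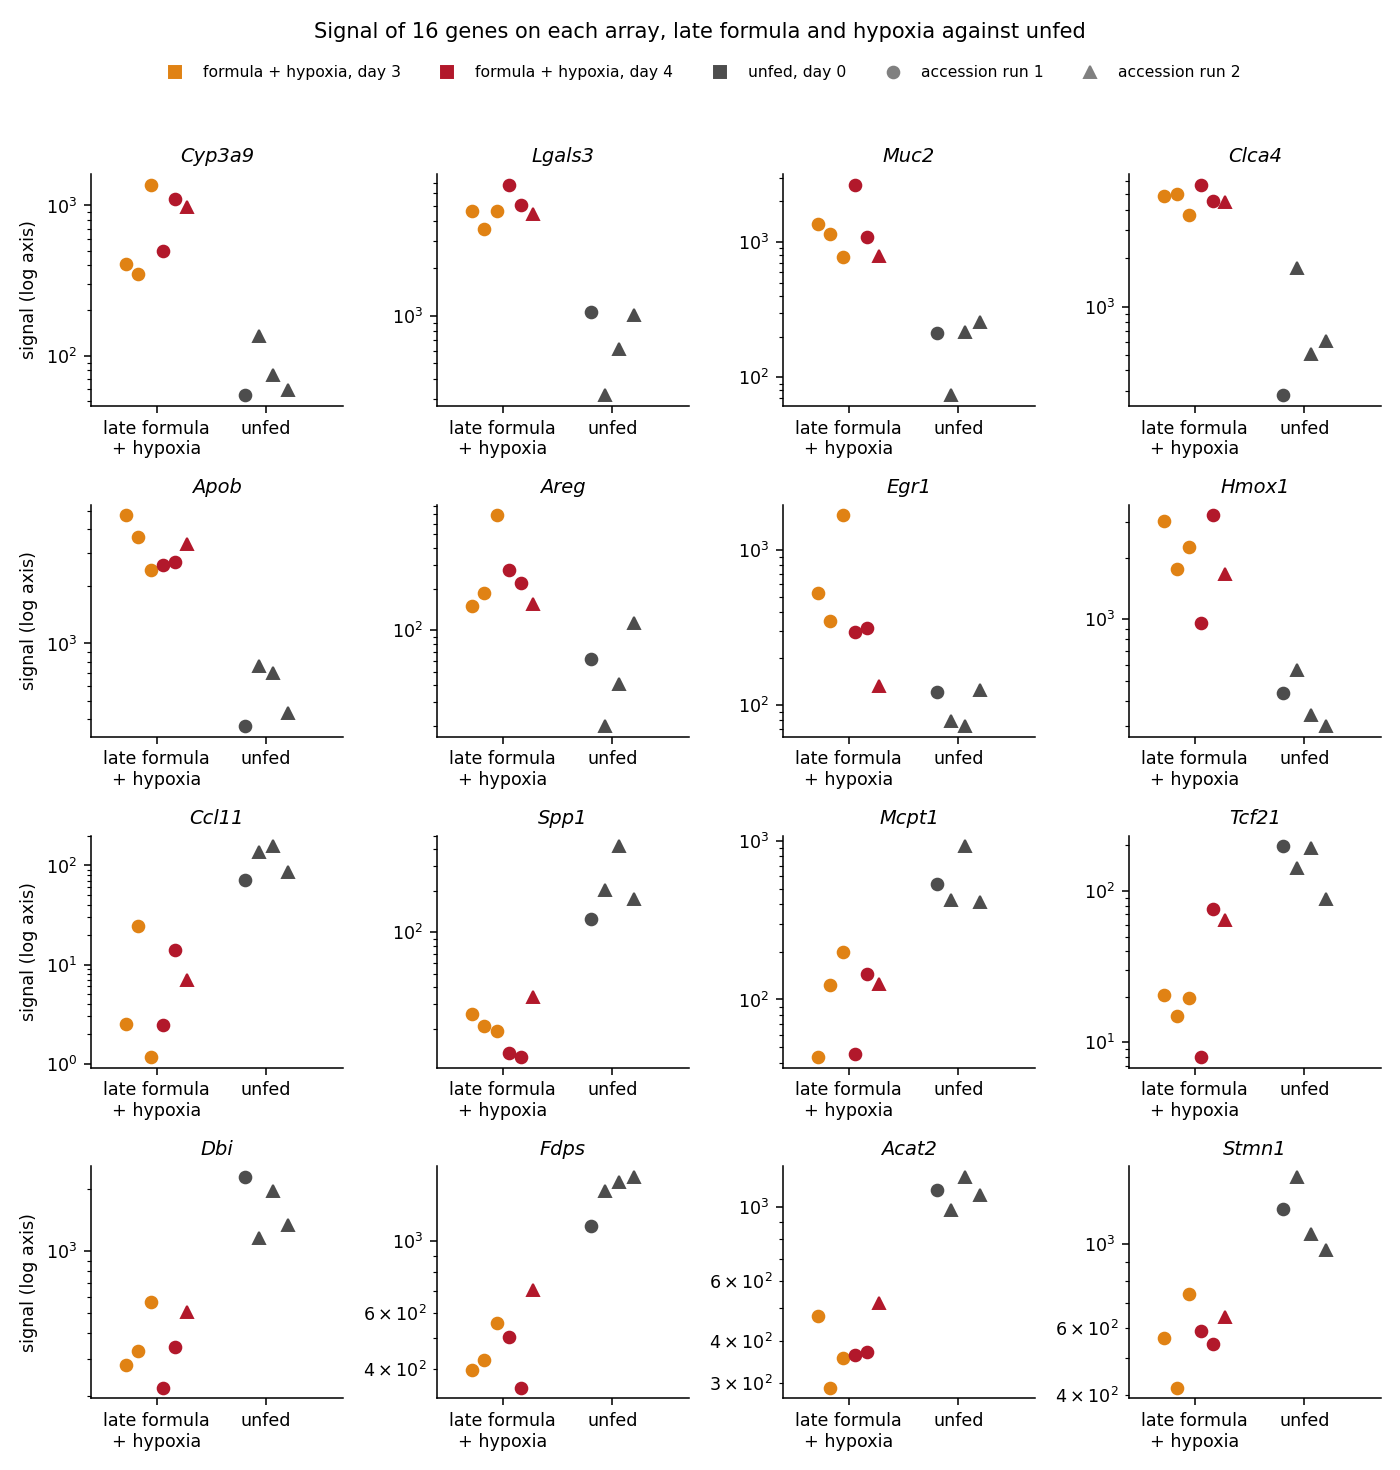
Signal of every array (logarithmic vertical axis) for 16 genes, with late formula and hypoxia arrays to the left of unfed arrays in each panel. Colours give the day, circles are arrays of accession run 1 and triangles those of run 2. In the panel of Lgals3 the 6 late formula and hypoxia arrays lie between 3538 and 6792, above all 4 unfed arrays, and in the panel of Spp1 they lie between 12.5 and 34.2, below all of them.

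Genes of nutrient digestion were higher in part. Of 18 measured brush border genes, 4 were called higher (22.2%, against 6.59% of all genes) and 0 lower, with a median log2 difference of 0.56. Without unfed replicate 2, the calls came to 8. The meprin subunits Mep1b and Mep1a, proteases of the brush border, were 3.36-fold (adjusted p = 0.000371) and 2.96-fold (adjusted p = 0.00419) higher. Mep1b had signals of 778 to 1571 (median 1069) in late formula and hypoxia arrays, against 205, 493, 262 and 372 in unfed arrays, with no overlap. Slc15a1, the proton-coupled peptide transporter, was 4.15-fold higher (95% CI 2.05 to 8.38, adjusted p = 0.00751), at 189 to 498 (median 241) in late formula and hypoxia arrays and 33.8, 234, 27.5 and 41.5 in unfed arrays. Unfed replicate 2 lay within the late formula and hypoxia range and the other 3 unfed arrays far below it. Anpep, an aminopeptidase, was called at an adjusted p of 0.0254, and the call was lost without any 1 of 5 arrays (up to 0.127 without unfed replicate 3). Lct, the lactase that splits milk sugar, missed the threshold, with 338 to 669 (median 455) in late formula and hypoxia arrays and 310.2, 369, 238 and 247 in unfed arrays (adjusted p = 0.0505, 0.0468 without the 2 breast-fed arrays that had lost probe sets).

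Fat handling genes were called in both directions. Of 22 measured genes of fat absorption and lipoproteins, 5 were called higher (22.7%) and 3 lower (13.6%), against 6.59% and 7.07% of all genes. With a common median 1 was called higher and 3 lower. Apob, the structural protein of chylomicrons, had signals of 2434 to 4741 (median 3008) in late formula and hypoxia arrays and of 366, 765, 699 and 431 in unfed arrays. The groups were far apart, and Apob was 5.76-fold higher (95% CI 3.35 to 9.91, adjusted p = 0.000125), while its 4 other probe sets gave log2 differences of 0.09 to 1.16. Apoa1, the main protein of high-density lipoprotein, was 2.15-fold higher (adjusted p = 0.000418, 0.121 with a common median). The fatty acid binding protein Fabp2 was 1.60-fold higher (adjusted p = 0.0148), a call lost without unfed replicate 3 (0.0720) and with a common median (0.725). Its relative Fabp1 went the other way, with 112 to 2268 (median 1243) in late formula and hypoxia arrays and 3538, 7647, 2825 and 3440.3 in unfed arrays. The groups did not overlap and Fabp1 was 4.84-fold lower (95% CI 2.11 to 11.1, adjusted p = 0.0114), but the run as a term took the adjusted p to 0.0983. Acsl5, which activates long-chain fatty acids, fell 2.65-fold (adjusted p = 0.00122), and Apoc3, an inhibitor of lipoprotein breakdown, fell 2.13-fold (adjusted p = 0.00192). Dbi, the small protein that carries acyl-CoA in the cytosol, fell 4.48-fold (95% CI 3.01 to 6.67, adjusted p = 2.84e-05). Dbi signals were 219 to 565 (median 336) in late formula and hypoxia arrays and 2282, 1156, 1957 and 1336 in unfed arrays, with a wide gap between the groups. Cpt1a, the gate for fatty acids into mitochondria, was 2.89-fold higher (95% CI 2.07 to 4.04, adjusted p = 0.000148), at 379 to 607 (median 541) in late formula and hypoxia arrays and 145, 245, 168 and 128 in unfed arrays. In the list of 24 measured fatty acid oxidation and ketone genes, 2 were called higher (8.33%, Cpt1a and Hadha) and 4 lower (16.7%). The 4 were Ehhadh, Etfa, Hadhb and Bdh1. The call of Hadha was lost without unfed replicate 3 (0.0587) and that of Etfa without unfed replicate 1 (0.0561). With the run as a term the calls were 2 higher and 0 lower, and without unfed replicate 3 they numbered 3.

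Sterol synthesis genes were lower at 7 of 15 measured and higher at 0. Cells make cholesterol from acetyl-CoA through mevalonate and isoprenoids, and when cholesterol reaches the cell from outside, the transcription factor SREBF2 is held back and the pathway's genes are turned down as a set. In promoters of this pathway, SREBF factors are known to act together with NF-Y, which binds the letters CCAAT. Among all genes 7.07% were called lower, and the median log2 difference of the 15 was -0.73. The 7 were Fdps, Acat2, Idi1, Hsd17b7, Msmo1, Fdft1 and Nsdhl, and 12 of 15 had a negative sign. With the run as a term 5 were lower, and without unfed replicate 4 the count was 3. The 250 bases before the RefSeq start (GRCr8) of the isoprenoid enzymes Fdps and Idi1 are shown because their genes are among the steepest falls and each holds the CCAAT letters more than once; capitals mark CCAAT or, on the other strand, ATTGG. The Fdps stretch is chr2:176804817-176805066 on the minus strand, and the Idi1 stretch is chr17:66547525-66547774 on the minus strand.
Fdps: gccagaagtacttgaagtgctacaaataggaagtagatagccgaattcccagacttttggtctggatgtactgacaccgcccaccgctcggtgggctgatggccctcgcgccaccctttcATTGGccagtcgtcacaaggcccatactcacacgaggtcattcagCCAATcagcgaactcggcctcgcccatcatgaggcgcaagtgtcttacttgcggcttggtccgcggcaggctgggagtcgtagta
Idi1: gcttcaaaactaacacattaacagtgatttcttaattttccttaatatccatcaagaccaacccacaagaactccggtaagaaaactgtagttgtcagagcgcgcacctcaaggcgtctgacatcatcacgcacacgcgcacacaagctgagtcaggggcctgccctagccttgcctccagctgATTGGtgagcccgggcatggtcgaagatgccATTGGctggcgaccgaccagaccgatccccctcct
CCAAT was found on either strand in 10 of the 13 list members with a promoter in the table, and in 34.0% of all 33469 promoters of that length. Of these 10, Fdps, Idi1, Hsd17b7, Msmo1 and Nsdhl were called lower. Insig1, Lss, Mvd, Mvk and Srebf1 were not called, and Insig1 and Srebf1 had positive log2 differences (0.26 and 0.24). Whether the letters go with the falls was not tested. The sterol element TCACNCCAC, searched on both strands, was in 0 of the 13 and in 0.974% of all promoters.

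Fdps, which joins isoprenoid units into farnesyl diphosphate, had signals of 351 to 704 (median 466) in late formula and hypoxia arrays and of 1110.1, 1432, 1519 and 1580.1 in unfed arrays. No late formula and hypoxia array came near the unfed range. Fdps was 2.90-fold lower (95% CI 2.22 to 3.78, adjusted p = 2.15e-05), and its 2 other probe sets also fell, at -1.61 and -2.10 on the log2 scale. Acat2, which joins acetyl-CoA units at the head of the pathway, was at 290.4 to 518 (median 367) in late formula and hypoxia arrays and at 1121, 976, 1224 and 1082 in unfed arrays. Its groups were as clearly apart, at a 2.79-fold fall (95% CI 2.10 to 3.71, adjusted p = 5.27e-05). Idi1, which isomerises the isoprenoid unit, was at 79.1 to 160.4 in late formula and hypoxia arrays and 281, 339, 254 and 301 in unfed arrays, a 2.52-fold fall (adjusted p = 0.0144). Hsd17b7, a reductase late in the pathway, fell 1.72-fold (adjusted p = 0.0171, 0.0862 without unfed replicate 4). Breast-fed pups of day 3 and 4 had a median difference from the same unfed arrays of -0.71 over this list (-0.54 without the 2 arrays that had lost probe sets). Between late formula and hypoxia and late breast-fed arrays 1 of the 15 genes was called, and it was higher under formula and hypoxia. Of all genes 4.73% were called in that comparison, in either direction. For Fdps the difference between late formula and hypoxia and late breast-fed arrays was -0.01 on the log2 scale (adjusted p = 0.979).

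**Figure D3:**
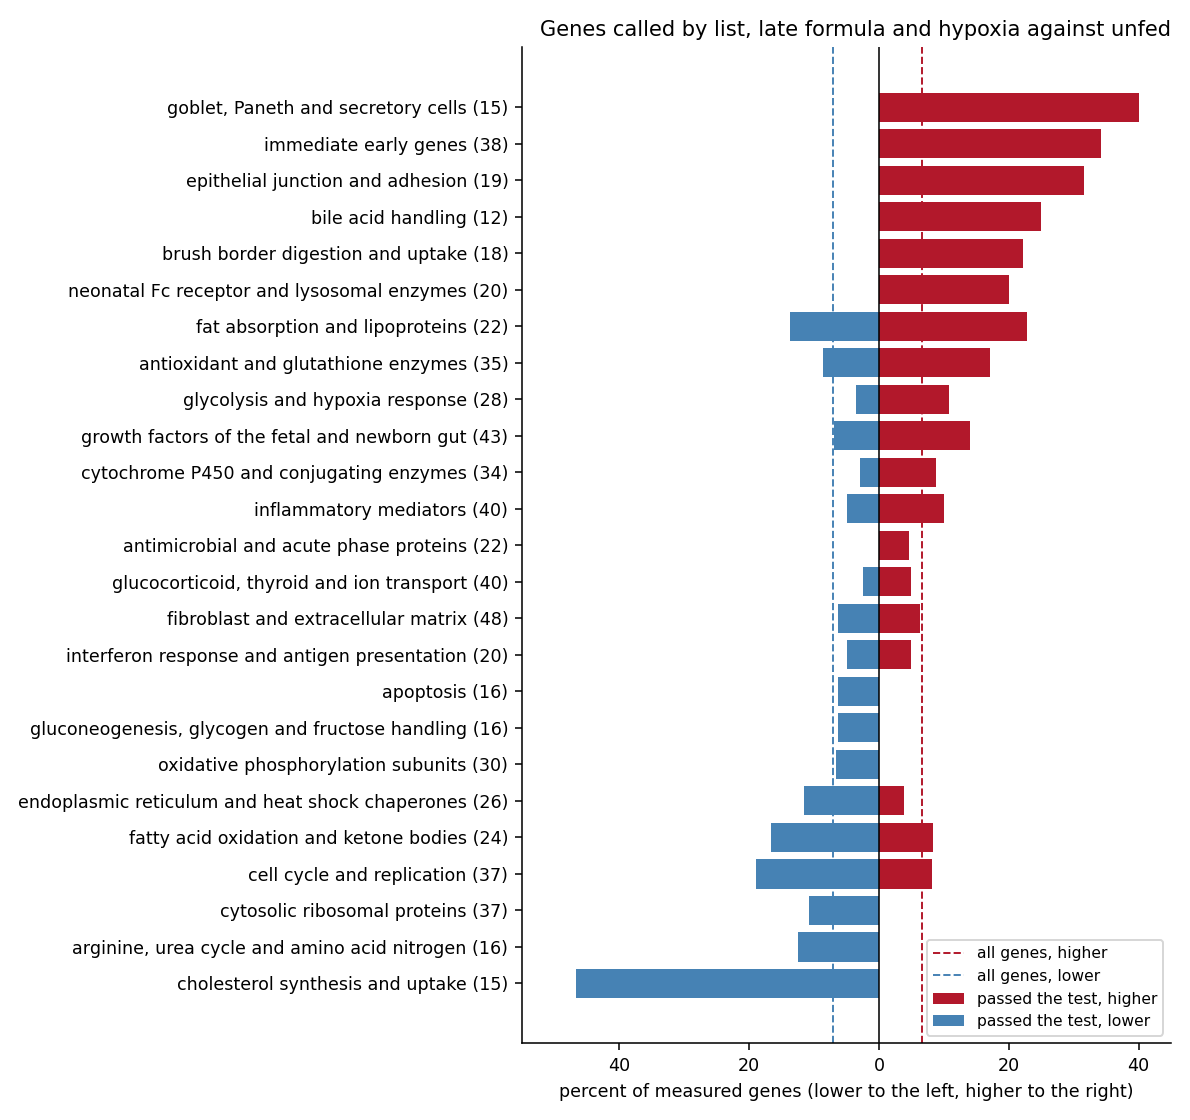
Percent of the measured genes of each of 25 lists that were called higher (bars to the right) or lower (bars to the left) in late formula and hypoxia arrays against unfed arrays. Dashed lines mark all genes, 6.59% higher and 7.07% lower. The longest bar to the right is that of goblet and secretory genes (6 of 15), followed by immediate early genes at 34.2%, and the longest to the left is that of cholesterol genes at 46.7%.

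Immediate early genes were called higher at 13 of 38 measured and lower at 0. These are transcription factors and signalling regulators that cells switch on within minutes of a growth factor or stress, before any new protein is made. Their median log2 difference was 0.39, and 6.59% of all genes were called higher. With the run as a term 9 were higher, without unfed replicate 1 the count was 7, and with a common median 9 were higher and 2 lower. The 13 were Egr1, Klf4, Jun, Fos, Myc, Junb, Atf3, Klf9, Zfp36l1, Cebpb, Ccn1, Bhlhe40 and Dusp1. Serum response factor, a known activator of such genes, binds the CArG box, so the 250 bases before the RefSeq start of Egr1 (GRCr8, chr18:26736828-26737077, plus strand) are shown with CArG boxes in capitals.
Egr1: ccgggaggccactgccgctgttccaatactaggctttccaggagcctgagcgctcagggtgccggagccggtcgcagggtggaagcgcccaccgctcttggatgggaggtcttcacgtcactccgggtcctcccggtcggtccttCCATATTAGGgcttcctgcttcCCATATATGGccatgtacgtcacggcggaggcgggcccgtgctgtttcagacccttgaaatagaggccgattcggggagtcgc
The CArG box, searched on both strands by its usual consensus, was in the promoters of 4 of 27 list members with a promoter in the table (Egr1, Egr2, Klf6 and Zfp36) and in 1.497% of all promoters. Of these 4, Egr1 was called.

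Egr1, a zinc finger factor induced by growth factors and injury, had signals of 134 to 1669 (median 331) in late formula and hypoxia arrays and of 122, 79.1, 73.3 and 124 in unfed arrays. Late formula and hypoxia arrays were all above the unfed arrays but spread widely, with day 3 replicate 3 at the top and day 4 replicate 3 at the bottom. Egr1 was 3.86-fold higher (95% CI 2.45 to 6.06, adjusted p = 0.000256), with 2.70 on day 3 and 1.19 on day 4 on the log2 scale, and its 3 other probe sets gave 0.87, 0.45 and 0.00. Jun, a subunit of the AP-1 factor, was at 145 to 424 (median 217) in late formula and hypoxia arrays and 18.9, 39.9, 28.8 and 68.5 in unfed arrays, a 5.35-fold rise without overlap (95% CI 2.66 to 10.7, adjusted p = 0.0019). Fos, the partner of Jun in AP-1, was at 310.2 to 952 (median 561) in late formula and hypoxia arrays and 230.0, 164, 161 and 234 in unfed arrays, a 2.85-fold rise (adjusted p = 0.00326). Its groups did not overlap, and its 2 other probe sets had log2 differences of 1.78 and 2.21. Klf4 was at 157 to 540.1 in late formula and hypoxia arrays and at 81.8, 165, 101 and 156 in unfed arrays, and was 2.49-fold higher (adjusted p = 0.000423) with a slight overlap. Klf9, a factor that glucocorticoid and thyroid hormone induce, was 2.89-fold higher (adjusted p = 0.0129, 0.0873 without unfed replicate 1). Map3k12, a kinase upstream of Jun N-terminal kinase, was 5.20-fold higher (95% CI 2.77 to 9.75, adjusted p = 0.000844), with a wide late formula and hypoxia range of 19.4 to 279 against 8.95, 18.5, 10.04 and 6.51 in unfed arrays.

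Areg and Hbegf, ligands of the EGF receptor, rose as well. Areg, amphiregulin, had signals of 150.1 to 688 (median 204) in late formula and hypoxia arrays and of 62.3, 20.01, 40.5 and 113 in unfed arrays. The lowest late formula and hypoxia array stood above the highest unfed array, and the rise was 4.25-fold (95% CI 2.51 to 7.20, adjusted p = 0.000563). Hbegf, a second such ligand, was at 16.8 to 102 (median 44.3) in late formula and hypoxia arrays and 7.25, 10.96, 7.83 and 10.8 in unfed arrays, 2.93-fold higher (adjusted p = 0.000764), although its other probe set gave -0.11 on the log2 scale. Errfi1, a feedback inhibitor of the receptor, was 2.64-fold higher (adjusted p = 0.00954, 0.0518 without unfed replicate 3, and also lost without unfed replicate 1), at 239 to 833 in late formula and hypoxia arrays and 87.2, 166, 95.8 and 248 in unfed arrays, of which replicate 4 overlapped. Egf itself was dim, at 7.79 to 23.4 in late formula and hypoxia arrays and 4.53, 12.5, 9.02 and 10.9 in unfed arrays, and its call (adjusted p = 0.0426) was lost without any 1 of 8 arrays. In the list of 43 measured growth factor genes, 6 were called higher (13.95%) and 3 lower (6.98%), against 6.59% and 7.07% of all genes. The share lower was thus near that of all genes. The 3 lower ones were Ptn, a heparin-binding growth factor of developing tissue, the fetal non-coding RNA H19, and Bmp7. Ptn fell 2.76-fold (adjusted p = 0.00874, 0.0596 without unfed replicate 3). Without unfed replicate 3 the calls of the list were 4, and with the run as a term they were 4 higher and 1 lower. Igf2, the main fetal growth factor, was not called (adjusted p = 0.105), at 928 to 1700.0 in late formula and hypoxia arrays and 1706, 5315, 2199 and 1409.8 in unfed arrays.

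Of 35 measured antioxidant and glutathione genes, 6 were called higher (Gpx3, Gsta1, Gclm, Hmox1, Nqo1 and Gstp1), which is 17.1% against 6.59% of all genes. The 3 lower (Gsta4, Nfe2l2 and Sod1) are 8.57%, near the 7.07% of all genes. With the run as a term 6 were higher and 0 lower, and without unfed replicate 3 the calls were 5 higher and 0 lower. They were 9 higher and 6 lower with array weights. Hmox1, haem oxygenase 1, which breaks haem down and is induced by oxidants, haem and hypoxia, had signals of 957 to 3225 (median 2014) in late formula and hypoxia arrays and of 439, 564, 343 and 300.4 in unfed arrays. With no overlap, the rise was 4.90-fold (95% CI 2.48 to 9.71, adjusted p = 0.00252). Gpx3, a secreted glutathione peroxidase, was at 2869 to 4249 (median 3881) in late formula and hypoxia arrays and 492, 1564, 940.3 and 785 in unfed arrays, a 4.28-fold rise (95% CI 2.83 to 6.47, adjusted p = 6.13e-05). Gclm, the regulatory subunit of the enzyme that starts glutathione synthesis, changed less but tightly, at 305 to 415 in late formula and hypoxia arrays and 192, 180.0, 211 and 176 in unfed arrays (1.83-fold higher, adjusted p = 0.000649). Gsta1, a glutathione transferase, was 4.47-fold higher (adjusted p = 0.000447). Gstp1, another transferase, was at 4506 to 7180.3 in late formula and hypoxia arrays and at 1419, 1609.5, 1437 and 1616 in unfed arrays, with no overlap. It was 3.48-fold higher (adjusted p = 0.0271), a call lost with the run as a term (0.199), with a common median (0.179), at the deposited scaling (0.0511) and without any 1 of 4 arrays (up to 0.0749 without unfed replicate 3). The adjusted p was 2.9e-05 without the 2 breast-fed arrays that had lost probe sets, which share the estimate of the spread. The other probe set of Gstp1, at a mean of 3978 in late formula and hypoxia arrays and 889 in unfed arrays, was 4.39-fold higher (adjusted p = 6.03e-07, 1.71e-05 with the run as a term).

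Bile acid genes gave 3 called higher (25%, against 6.59% of all genes) and 0 lower of 12 measured. Abcc2, an export pump for conjugated bile salts and drugs on the apical membrane, had signals of 533 to 984 (median 674) in late formula and hypoxia arrays and of 106, 151, 137 and 159 in unfed arrays, which did not overlap. It was 4.95-fold higher (95% CI 2.84 to 8.64, adjusted p = 0.000373). Cyp27a1, the sterol 27-hydroxylase of bile acid synthesis, was at 354 to 874 (median 511) in late formula and hypoxia arrays and 253, 152, 146 and 174 in unfed arrays, 2.92-fold higher (adjusted p = 0.00136) and again apart. Fabp6, the ileal bile acid binding protein, was 1.77-fold higher at an adjusted p of 0.0488, a call lost without any 1 of 9 of the 10 arrays and with the run as a term (0.204). Slc10a2, the ileal bile acid transporter, was not called, at 12.3 to 78.8 in late formula and hypoxia arrays and 41.2, 41.2, 33.9 and 35.5 in unfed arrays (adjusted p = 0.991). Dio1, the deiodinase that activates or clears thyroid hormone, fell 3.47-fold (95% CI 2.09 to 5.76, adjusted p = 0.00154), at 11.1 to 89.0 in late formula and hypoxia arrays and 96.2, 129, 113 and 194 in unfed arrays. Hsd17b2, which inactivates sex steroids, was at 23.0 to 154 in late formula and hypoxia arrays and 385, 626, 307 and 344 in unfed arrays, a 4.57-fold fall without overlap (95% CI 2.87 to 7.28, adjusted p = 0.000113).

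Lysosomal genes, which serve the breakdown of endocytosed milk protein in the newborn rat ileum, were called higher at 4 and lower at 0 of 20 measured. The share higher was 20%, against 6.59% of all genes, and without unfed replicate 1 the calls were 2. Man2b1, a lysosomal mannosidase, had signals of 1008 to 1978 (median 1304) in late formula and hypoxia arrays and of 314, 838, 316 and 349 in unfed arrays, 3.26-fold higher without overlap (95% CI 2.20 to 4.82, adjusted p = 0.000225). Dab2, an endocytic adaptor, was 2.87-fold higher (adjusted p = 0.00952, 0.0594 without unfed replicate 1), at 708 to 1502 in late formula and hypoxia arrays and 198, 1285, 331 and 237 in unfed arrays, of which replicate 2 overlapped. Ctsl and Lamp1 were the other 2, and both calls were lost with a common median (0.304 and 0.384), that of Lamp1 also without unfed replicate 1 or 3 or without day 3 replicate 2 of formula and hypoxia. Fcgrt, the receptor that carries maternal antibody across the newborn gut, was not called, at 552 to 959.8 in late formula and hypoxia arrays and 849, 1369, 690.4 and 463 in unfed arrays (adjusted p = 0.982).

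Genes of the tissue below the epithelium gave some of the deepest falls. Ccl11, eotaxin, which attracts eosinophils, had signals of 1.16 to 24.4 (median 4.72) in late formula and hypoxia arrays and of 71.8, 138, 157 and 85.9 in unfed arrays. All 6 late formula and hypoxia arrays were far below the unfed arrays, and the fall was 7.80-fold (95% CI 4.32 to 14.1, adjusted p = 6.19e-05). Spp1, osteopontin, a secreted adhesive glycoprotein, was at 12.5 to 34.2 (median 20.2) in late formula and hypoxia arrays and 125, 203, 420.1 and 174 in unfed arrays, a 7.69-fold fall (95% CI 4.69 to 12.6, adjusted p = 1.69e-05). Tcf21, which marks mesenchymal cells and regulates transcription in them, was at 8.01 to 75.8 (median 20.2) in late formula and hypoxia arrays and 198, 143, 192 and 88.8 in unfed arrays. It was 4.50-fold lower (95% CI 2.60 to 7.80, adjusted p = 0.000576) with a narrow gap at the upper end, and its other probe set gave -0.60 on the log2 scale. Lum, lumican, a collagen-binding proteoglycan, fell 3.36-fold (95% CI 2.02 to 5.57, adjusted p = 0.002), at 58.6 to 169 in late formula and hypoxia arrays and 278, 665, 415 and 200.4 in unfed arrays. Of 48 measured fibroblast and matrix genes 3 were called higher (Eln, Mmp2 and Pdgfra) and 3 lower (Spp1, Tcf21 and Lum), 6.25% each way against 6.59% higher and 7.07% lower over all genes, with a median of 0.25. The calls were 9 higher and 3 lower at the deposited scaling, 9 higher and 4 lower with array weights, and 9 in all without day 4 replicate 3 of formula and hypoxia. Eln, elastin, rose 2.35-fold (adjusted p = 0.00168), at 187 to 545 in late formula and hypoxia arrays and 174, 101, 116 and 151 in unfed arrays.

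Mast cell proteases fell. Mast cells store chymases and a carboxypeptidase in granules, and the rat's mucosal and connective tissue types hold different chymases. Of 8 measured mast cell markers 0 were called higher and 4 lower (Mcpt1, Mcpt4, Cma1 and Cpa3), with a median log2 difference of -0.68. The share lower was 50%, against 7.07% of all genes. The summed signal of the 8 was 374 to 677 in late formula and hypoxia arrays and 894 to 1755 in unfed arrays, and Fcer1a and Ms4a2, chains of the IgE receptor, were under 50 on all 10 arrays. Mcpt1 was at 43.3 to 200.5 (median 124) in late formula and hypoxia arrays and 536, 426, 928 and 411 in unfed arrays, a 5.14-fold fall without overlap (95% CI 2.93 to 9.02, adjusted p = 0.00034). Vch, vascular chymase, was at 6.15 to 63.8 (median 25.7) in late formula and hypoxia arrays and 129.9, 172, 334 and 151 in unfed arrays, a 5.61-fold fall (95% CI 3.10 to 10.1, adjusted p = 0.000342). Mcpt4 was at 1.78 to 10.6 in late formula and hypoxia arrays and 27.7, 32.8, 126 and 48.6 in unfed arrays, a 4.42-fold fall (adjusted p = 0.00052). Near-identical chymase genes could share signal on their probe sets. Cma1 fell 1.97-fold (adjusted p = 0.00796, 0.0587 without unfed replicate 3) and Cpa3 fell 2.35-fold (adjusted p = 0.0262, 0.123 without unfed replicate 3), and the call of Cpa3 was also lost without day 3 replicate 1 or day 4 replicate 1 of formula and hypoxia.

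Smooth muscle genes rose in part. Of 8 measured smooth muscle markers 3 were called higher (Des, Myh11 and Actg2) and 0 lower, which is 37.5% higher against 6.59% of all genes. All 8 had a positive sign, and the median log2 difference was 1.18. Their summed signal was 11566 to 17987 in late formula and hypoxia arrays and 5540 to 10429 in unfed arrays, with none of the 8 under 50 on all arrays. Des, desmin, the muscle intermediate filament, was at 360.1 to 611 (median 409) in late formula and hypoxia arrays and 117, 42.0, 138 and 119 in unfed arrays, a 4.32-fold rise (95% CI 2.56 to 7.27, adjusted p = 0.000447). Myh11, smooth muscle myosin, was 3.62-fold higher (adjusted p = 0.0009), at 469 to 1300.3 in late formula and hypoxia arrays and 265, 279, 239 and 167 in unfed arrays. Actg2, smooth muscle gamma actin, was 2.29-fold higher (adjusted p = 0.00135, 0.205 with a common median). These markers of the muscle coat, the mast cell markers and the enterocyte markers (summed signal 9008 to 12671 in late formula and hypoxia arrays and 5245 to 9049 in unfed arrays, 2 of 6 called higher) moved with the same groups as the genes above, and their part in those results was not tested. Red cell markers summed to 12124 to 17877 in late formula and hypoxia arrays and 16182 to 19024 in unfed arrays, with 1 of 4 lower (Alas2, which starts haem synthesis, 1.99-fold, adjusted p = 0.00799, 0.0553 without unfed replicate 3). Of 9 macrophage and granulocyte and 9 lymphocyte markers, 0 were called, with sums of 466 to 699 in late formula and hypoxia arrays and 452 to 647 in unfed arrays for macrophages and granulocytes. Lymphocyte markers summed to 521 to 929 in late formula and hypoxia arrays and 629 to 736 in unfed arrays.

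Cell cycle genes were called in both directions. Of 37 measured genes 3 were higher (8.11%: the cyclins Ccnd2 and Ccnd1 and the cyclin-dependent kinase inhibitor Cdkn1b) and 7 lower (18.9%: H2az1, Stmn1, Aurkb, Hmgb2, Prim1, Racgap1 and another such inhibitor, Cdkn1c), and without unfed replicate 1 the calls were 2 higher and 4 lower. Of all genes 6.59% were called higher and 7.07% lower. Ccnd2, cyclin D2, which drives entry into the cycle, was at 493 to 1409.8 (median 776) in late formula and hypoxia arrays and 129, 99.1, 186 and 145 in unfed arrays. The groups were widely apart, with a 5.33-fold rise (95% CI 3.47 to 8.18, adjusted p = 2.15e-05). H2az1, a histone variant, was at 416 to 1131 (median 617) in late formula and hypoxia arrays and 1836, 1637, 2305 and 1809.7 in unfed arrays, a 2.77-fold fall (adjusted p = 0.000827). Stmn1, stathmin, a microtubule regulator of dividing cells, was at 418 to 741 in late formula and hypoxia arrays and 1239.6, 1509, 1068 and 969 in unfed arrays, a 2.04-fold fall (adjusted p = 0.00237). Aurkb, a kinase of mitosis, fell 1.95-fold (adjusted p = 0.00262, 0.0560 at the deposited scaling). Rpa3, a subunit of the single-strand DNA binding complex of replication, fell 4.64-fold (adjusted p = 0.0261), but the call was lost without unfed replicate 1 (0.0987), unfed replicate 3, or replicate 1 of day 3 or of day 4.

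Anapc15, a subunit of the anaphase-promoting complex, had the deepest fall of the leading genes, at 3.84 to 12.3 (median 8.60) in late formula and hypoxia arrays and 257, 67.0, 186 and 174 in unfed arrays. All late formula and hypoxia arrays were dim and well below the unfed arrays, and the fall was 10.2-fold (95% CI 4.85 to 21.6, adjusted p = 0.000179). Mrps14, a protein of the mitochondrial ribosome, fell 4.04-fold (95% CI 2.74 to 5.97, adjusted p = 5.27e-05), Eif3m, a translation initiation factor subunit, fell 4.62-fold (adjusted p = 0.000922), and Tvp23b, a Golgi membrane protein, fell 3.88-fold (adjusted p = 0.000184). Ppil3, a prolyl isomerase, fell 3.63-fold (adjusted p = 0.00122), and the uncharacterised LOC102547700 fell 3.69-fold (adjusted p = 0.0017). Of 30 measured subunits of oxidative phosphorylation, 0 were called higher and 2 lower (Atp5pf and Atp5pb, both of the ATP synthase), while 27 of 30 had a negative sign and the median was -0.48. The share of 6.67% lower was near that of all genes (7.07%), but 9 of the 30 were called lower without the 2 breast-fed arrays that had lost probe sets, where 7.98% of all genes were, and 7 with array weights. Of 37 cytosolic ribosomal proteins 4 were called lower (10.8%) with a median of -0.18, and without unfed replicate 1 or 3 the count was 1. Otc, the urea cycle enzyme that the newborn gut uses to make citrulline, fell 2.49-fold (95% CI 1.89 to 3.28, adjusted p = 0.000108), at 340.1 to 660.2 in late formula and hypoxia arrays and 1253, 1089, 1183 and 1036 in unfed arrays. Hspe1, a mitochondrial chaperonin, fell 2.51-fold (adjusted p = 0.000456), and Diablo, which neutralises inhibitors of apoptosis, fell 1.81-fold (adjusted p = 0.0019).

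Over all genes 6.59% were called higher and 7.07% lower, and in 7 further lists the shares were 0 to 8.82% higher and 2.5 to 12.5% lower. Of 16 measured genes of gluconeogenesis and fructose handling 1 was lower (Tkfc, a triose kinase), and of 16 genes of arginine and the urea cycle 2 were lower (Otc and Odc1). Of 34 cytochrome P450 and conjugating enzymes 3 were higher (Cyp3a9, Sult1a1 and Por) and 1 lower (Cyp2j3), and of 40 hormone and ion transport genes 2 were higher (Nr3c2 and Klf9) and 1 lower (Dio1). The hormone and ion transport calls were 9 higher and 1 lower at the deposited scaling, 10 higher and 1 lower with array weights, 4 higher and 1 lower without the 2 breast-fed arrays that had lost probe sets, and 2 to 6 in all with 1 array left out. Of 26 chaperones 1 was higher (Hspb1) and 3 lower (Hspe1, Sec61b and Fkbp4), or 3 higher and 4 lower without those 2 breast-fed arrays. Of 20 interferon and antigen presentation genes 1 was higher (Cxcl10) and 1 lower (Psme2), and of 16 apoptosis genes 1 was lower (Diablo). Among markers of other cells, 1 of 10 enteroendocrine genes was lower (the hormone Cck) and 1 of 12 nerve and glia genes was higher (the peptide Vip). Of 9 liver markers 1 was higher (Serpina1) and 1 lower (Apoc3), of 7 fat markers 1 was lower (Fabp4), and 0 of 4 endothelial, 3 Paneth, 2 colon and 5 stomach markers were called. The calls of Sult1a1, Por, Nr3c2, Hspb1, Fkbp4, Cxcl10, Tkfc, Cck and Vip were lost with the run as a term. Leaving out at least 1 array took away the calls of Odc1, Sult1a1, Por, Cyp2j3, Nr3c2, Klf9, Hspb1, Fkbp4, Cxcl10, Cck, Vip and Fabp4, and that of Cxcl10 was also lost without the 2 breast-fed arrays (0.0523). With array weights, which gave 1812 calls over all probe sets, the calls were 8 higher of the brush border genes, 7 higher of the lysosomal genes, 4 higher of the antimicrobial genes, 5 higher and 11 lower of the cell cycle genes, and 9 lower of the ribosomal proteins. The antimicrobial genes also gave 4 higher at the deposited scaling, and the genes of gluconeogenesis and fructose handling gave 3 higher and 1 lower there and with array weights.

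Inflammatory mediators and genes of glycolysis and hypoxia, both tied to necrotizing enterocolitis, were called at shares near those of all genes. Of the mediators 10% were higher and 5% lower, and of the glycolysis and hypoxia genes 10.7% were higher and 3.57% lower, against 6.59% and 7.07% of all genes. Of 40 measured inflammatory mediators 4 were called higher (Il1b, Nfkb1, Nfkbia and Il6) and 2 lower (Ccl11 and Il18), and 17 of the 40 stayed under 50 on all 10 arrays. The count of 6 was 2 without unfed replicate 1, or without day 3 replicate 2 or day 4 replicate 1 of formula and hypoxia, and 7 without day 4 replicate 3. The calls were 9 higher and 2 lower at the deposited scaling, 7 higher and 2 lower with array weights, 2 higher and 2 lower with a common median and 2 higher and 1 lower with the run as a term. Il1b, interleukin 1 beta, was at 54.3 to 89.2 (median 71.7) in late formula and hypoxia arrays and 43.9, 31.4, 46.4 and 28.1 in unfed arrays, 1.77-fold higher without overlap (adjusted p = 0.0225), and the call was lost with the run as a term (0.0961) and without any 1 of 4 arrays (up to 0.0765 without unfed replicate 4). Il6 was dim, at 5.67 to 32.7 in late formula and hypoxia arrays and 3.67, 2.95, 8.69 and 10.8 in unfed arrays, and its call (adjusted p = 0.0464) was lost without any 1 of 7 arrays. Il18, made by epithelium, fell 1.93-fold (adjusted p = 0.0261), lost with the run as a term (0.0643) and without any 1 of 4 arrays. Tnf was at 3.08 to 11.2 in late formula and hypoxia arrays and 10.5, 7.85, 7.35 and 5.83 in unfed arrays (adjusted p = 0.827). Nos2, inducible nitric oxide synthase, was at 24.7 to 139 in late formula and hypoxia arrays and 101, 16.7, 23.8 and 97.5 in unfed arrays (adjusted p = 0.879). Il10 and Pla2g2a had adjusted p-values of 0.812 and 0.239. For Ptgs2, inducible prostaglandin synthase, the brighter probe set was not called (adjusted p = 0.947), while the other, at a mean signal of 27.5 in late formula and hypoxia arrays and 5.94 in unfed arrays, was called 2.28-fold higher (adjusted p = 0.0129, 0.117 with the run as a term). Of 28 measured glycolysis and hypoxia response genes 3 were called higher (Pfkp, Hmox1 and Adm) and 1 lower (Pdk1). The call of Pdk1 was lost without any 1 of 8 arrays, and that of Nfkb1 without any 1 of 3 (up to 0.189 without unfed replicate 1). Adm, adrenomedullin, a vessel-widening peptide induced by low oxygen, was at 34.3 to 62.3 (median 44.8) in late formula and hypoxia arrays and 5.86, 9.07, 24.9 and 5.64 in unfed arrays, 2.90-fold higher (adjusted p = 0.00678). Slc2a1, the glucose transporter that hypoxia induces, missed the threshold, at 552 to 1023 in late formula and hypoxia arrays and 209, 393, 379 and 322 in unfed arrays (adjusted p = 0.0629, 0.0398 without the 2 breast-fed arrays that had lost probe sets). Vegfa, the blood vessel growth factor, was at 47.3 to 140.4 in late formula and hypoxia arrays and 179, 56.2, 76.5 and 165 in unfed arrays (adjusted p = 0.503).

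Late breast-fed pups were of the same age as late formula and hypoxia pups by their labels, so these groups differ in feeding and hypoxia and not in age. They also differ in accession run. Breast-fed day 4 arrays and day 3 replicate 3 lay in run 2, and the late formula and hypoxia arrays lay in run 1 except day 4 replicate 3. Regimen and run are thus partly tied together. Late formula and hypoxia arrays differed from late breast-fed arrays at 373 probe sets (4.27%), 126 higher and 247 lower, and with the run as a term at 129 (1.48%). Without the 2 breast-fed arrays that had lost probe sets the count was 190, 90 higher and 100 lower, so the excess of lower calls was much smaller. It was 232 without day 4 replicate 2 of these breast-fed arrays alone and 226 without day 4 replicate 1 of formula and hypoxia. In genes 224 (4.73%) were called, and of the 647 genes called against unfed 129 (19.9%) were also called against breast-fed. Without those 2 breast-fed arrays 117 genes were called, 78 of them among the 647. This equals a test of whether the change from unfed differed between the regimens, because both are set against the same 4 unfed arrays. Late breast-fed arrays differed from those unfed arrays at 556 probe sets (6.36%), or 238 without those 2 arrays.

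Among genes called in both comparisons the largest differences from breast-fed arrays were in Cyp3a9, Ly6al, Gstp1 and Cyp27a1 on the higher side and in Mcpt4, Vch, Dio1 and Mcpt1 on the lower side. Cyp3a9 was at 349.9 to 1377 in late formula and hypoxia arrays and 21.4 to 109 (median 79.2) in breast-fed arrays, 9.44-fold higher (adjusted p = 2.24e-05), while breast-fed and unfed arrays differed by -0.19 on the log2 scale (adjusted p = 0.852, and 0.26 on that scale without the 2 breast-fed arrays that had lost probe sets). Cyp27a1 was 4.56-fold higher than in breast-fed arrays (adjusted p = 2.24e-05), where it was at 42.0 to 189.7. Gstp1 was 4.91-fold higher (adjusted p = 0.00576, 0.0756 with the run as a term), and 2.93-fold higher without those 2 arrays (adjusted p = 0.000282). Ly6al, a small surface protein gene of the Ly6 family, was 5.09-fold higher (adjusted p = 0.012, 0.0783 with the run as a term and 0.091 without those 2 arrays). On the lower side, Mcpt4 was at 1.78 to 10.6 in late formula and hypoxia arrays and 52.2 to 289 (median 198) in breast-fed arrays, a 13.3-fold difference (adjusted p = 6.18e-07). Breast-fed arrays were above unfed arrays for Mcpt4 (log2 1.59, adjusted p = 0.0132, 0.0545 without those 2 arrays), and formula and hypoxia arrays below them. Vch was 10.6-fold lower than in breast-fed arrays (adjusted p = 5.01e-06), Mcpt1 was 7.62-fold lower (adjusted p = 2.05e-05) and Dio1 was 8.25-fold lower (adjusted p = 3.36e-06), with Dio1 at 199 to 480.4 in breast-fed arrays. For all of these except Gstp1 and Ly6al the run as a term kept the call, and without the 2 breast-fed arrays only that of Ly6al was lost.

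Other genes called against unfed did not pass the test against breast-fed arrays, which does not show that the regimens were equal. Muc2 was at 778 to 2662 in late formula and hypoxia arrays and 775 to 2091 in breast-fed arrays (log2 difference -0.07 with a standard error of 0.35, adjusted p = 0.943). Pmepa1 was at 180.3 to 461 in late formula and hypoxia arrays and 208 to 514 in breast-fed arrays (adjusted p = 0.929). Gpx3, Mep1b, Apoa1, Clca4 and Actg2 were likewise not called against breast-fed. Of the 38 immediate early genes, 10 were called higher than in breast-fed arrays and 0 lower. Of all probe sets 1.44% were called higher, and of all genes 4.73% were called in either direction. Fos was at 310.2 to 952 in late formula and hypoxia arrays and 31.7 to 216 (median 173) in breast-fed arrays, 4.03-fold higher (adjusted p = 0.000164), and Klf4 was 2.10-fold higher (adjusted p = 0.00305). Areg, at 33.8 to 99.6 in breast-fed arrays, was 3.64-fold higher under formula and hypoxia (adjusted p = 0.00176), and Hbegf was 2.44-fold higher (adjusted p = 0.00418). Egr1 differed 2.39-fold (adjusted p = 0.0111, 0.0898 with the run as a term). Ccl11 was 5.31-fold lower than in breast-fed arrays (adjusted p = 0.000362), Tcf21 was 3.94-fold lower (adjusted p = 0.00152) and Spp1 was 3.10-fold lower (adjusted p = 0.00317). Stmn1 was at 418 to 741 in late formula and hypoxia arrays and at 989.5 to 1209 in breast-fed arrays, 1.90-fold lower (adjusted p = 0.0054). Afp, alpha-fetoprotein, not called against unfed (adjusted p = 0.464), was at 105 to 1494 in late formula and hypoxia arrays and 1183 to 3742 in breast-fed arrays, 4.67-fold lower (adjusted p = 0.00623, 0.0594 with the run as a term). Without the 2 breast-fed arrays that had lost probe sets, 9 of the 38 immediate early genes were called higher and 0 lower. Of all 4736 genes, 58 were called higher and 59 lower in that fit. Fos, Klf4, Areg, Hbegf, Egr1, Ccl11, Tcf21, Spp1, Stmn1 and Afp remained called there (limma adjusted p-values of 0.000175 to 0.0468).

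Day 3 and day 4 of formula and hypoxia were not separable at this number of arrays. Of 8740 probe sets 0 were called between them by limma, and 521 (5.96%) had an unadjusted p under 0.05. Against unfed, day 3 gave 469 calls (5.37%) and day 4 gave 783 (8.96%). Among named genes, Egr1 differed by -1.51 on the log2 scale between day 4 and day 3 (adjusted p = 0.586).

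Arrays of days 1 and 2 of formula and hypoxia were set beside those of days 3 and 4. All arrays of days 1 and 2 lay in accession run 1, while unfed replicates 2 to 4 lay in run 2. A difference between these days and unfed arrays can therefore not be fully told apart from the run. For Muc2 the mean signal (taken on the log2 scale and turned back) was 173 in unfed arrays, 209.7 on day 1, 179 on day 2, 1070.2 on day 3 and 1323 on day 4 of formula and hypoxia. Jun was at 35.6 in unfed arrays and at 18.6, 38.2, 237 and 214 on days 1 to 4, and Egr1 at 97.1 in unfed arrays and at 124, 105, 676 and 232 on days 1 to 4. Both had means on days 3 and 4 above those of days 1 and 2 and of unfed arrays, and the mean of Jun on day 1 was below that of unfed arrays. Des gave 95.6 in unfed arrays and 113, 124, 395 and 489 on days 1 to 4, and Ccnd2 gave 136 in unfed arrays and 191, 117, 667 and 869 on days 1 to 4. For other genes the mean was already away from that of unfed arrays on day 1. Ccl11 was at 108 in unfed arrays and at 24.4, 7.87, 6.60 and 7.11 on days 1 to 4, and Spp1 at 208 in unfed arrays and at 84.6, 28.8, 21.9 and 18.4 on those days. Mcpt1 was at 544 in unfed arrays and at 353, 184, 104 and 94.6 on days 1 to 4. Lcn2 was at 88.1 in unfed arrays and already at 499 on day 1, with 441, 480.3 and 575 after it. Fdps, at 1398 in unfed arrays, was at 670.1 on day 1 and 499.8 on day 4, whereas Acat2, at 1097 in unfed arrays, was at 1107 and 902 on days 1 and 2 and at 366 and 412 on days 3 and 4. These day by day means of 3 arrays each were not tested against each other.

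**Figure D4:**
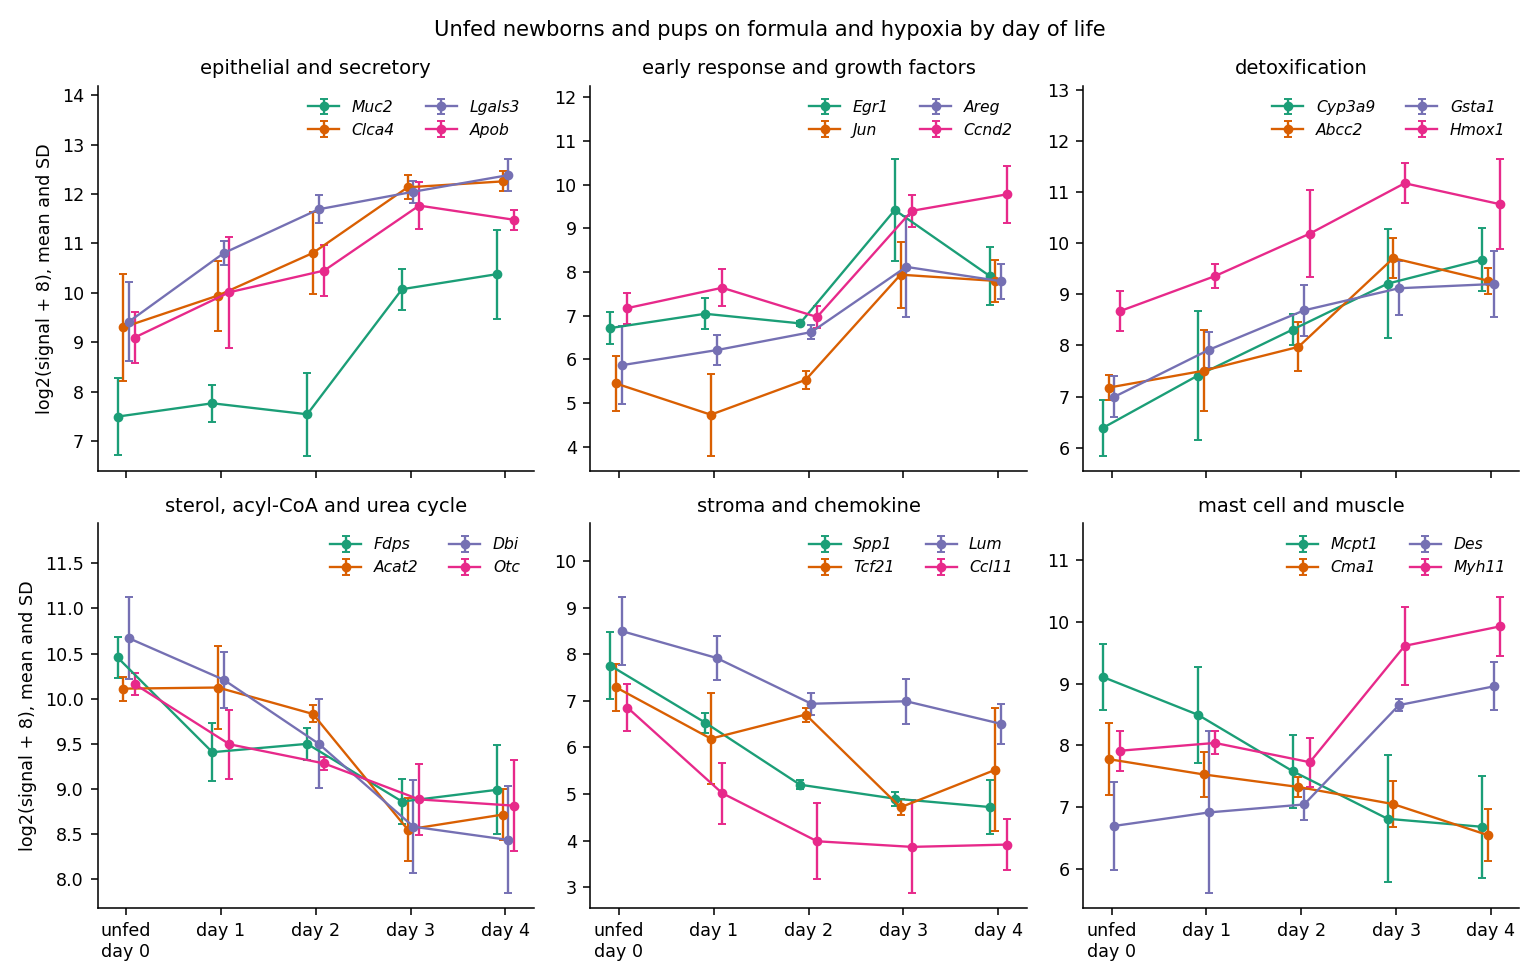
Mean log2(signal + 8) with standard deviation (error bars) in unfed arrays (4) and on days 1 to 4 of formula and hypoxia (3 arrays each) for 24 genes in 6 panels. Muc2, Jun, Egr1, Ccnd2, Des and Myh11 have means on days 3 and 4 above those of unfed arrays and of days 1 and 2, while the means of Ccl11, Spp1 and Mcpt1 are below that of unfed arrays from day 1.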

How the data were processed

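Total RNA of terminal ileum from 28 pups in 9 groups was hybridised to Affymetrix rat arrays, with 1 pup on each, per the labels. Each deposited value is the linear intensity of a probe set, scaled by the authors so that the 2% trimmed means of the 10 late formula and hypoxia and unfed arrays lay between 150.2 and 150.5, judged from the values. How the arrays were background corrected and summarised, and with which software, is not given in the sources used here. Groups and replicate numbers came from the titles and descriptions. Of 8799 probe sets, 59 controls were left out and 8740 were tested without a filter. The platform annotation gave 1 symbol for 7006 probe sets, several for 308 and none for 1426, and 6985 of the 7006 matched a RefSeq gene. A gene is its probe set with the highest mean, which gave 4736 genes. Intensities were quantile normalised, a pseudocount of 8 was added and log2 was taken. The 28 arrays were fitted together, each group with a mean of its own (19 residual degrees of freedom), with limma 3.58.1 in R 4.3.3 (eBayes with an intensity trend, Benjamini-Hochberg adjustment), and the scripts were tested on simulated data. Sequences are RefSeq's (GRCr8).

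The groups compared and the gene lists were chosen with earlier results of these data known, and no set test was run. The genes described in the text against unfed were the 14 largest differences in each direction among genes called with and without the accession run as a term, with groups that did not overlap and a mean signal of at least 100 in the higher group. Against breast-fed arrays the 4 largest in each direction were taken from genes called in both comparisons, and from each list up to 4 members with the smallest adjusted p, beside a fixed set of disease and fetal genes. Other called list members are named without a test of their own in the text. The samples were not treated as paired by replicate number. Over 9 pairs of same-numbered arrays the correlation of deviations ran from -0.237 to 0.163 and was over 0.1 in 4. With so few arrays in a group these values cannot exclude a pairing. Alternatives were the scaling, pseudocount, filters, probe set choice, run, replicate number, array weights, arrays fitted and each array left out.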

Additional observations from a re-analysis of the deposited data

Results flagged for a closer look

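Of 262 groups of 4 unfed or 6 late formula and hypoxia arrays tested over the named genes and 5 array measures, 12 held an array that stood apart from the others of its group by Dixon's test, and chance alone gives about 1 in 20 such cases. Among unfed arrays replicate 2 was the array apart for Muc2 (73.4, others 211 to 258), Des (42.0, others 117 to 138), Psme2 (523, others 765 to 805), Tkfc (304, others 159 to 176) and Man2b1 (838, others 314 to 349). Among late formula and hypoxia arrays, day 3 replicate 1 stood apart for Slc15a1 (498, others 189 to 257), Etfa (432, others 680 to 780.5) and Egf (7.79, others 19.1 to 23.4). Day 3 replicate 2 stood apart for Rps10 (1071, others 2810.0 to 3742) and Slc2a1 (1023, others 552 to 672), day 4 replicate 1 for Fabp2 (5379, others 6910.2 to 7647), and day 4 replicate 3 for Ehhadh (17.7, others 5.06 to 6.93). These are signals after normalisation.

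For 38 of 126 named genes late formula and hypoxia and late breast-fed pups differed in their change from the same unfed arrays, by a limma test of the difference itself (adjusted p under 0.05). Over all 4736 genes 224 (4.73%) were called in that test. The named genes include the 4 largest in each direction chosen by being called in it, and many others were chosen by their call against unfed. The share of 38 in 126 was therefore partly set by that choice. The differences on the log2 scale, formula and hypoxia minus breast-fed, were positive for Cyp3a9 (3.24), Ly6al (2.35), Gstp1 (2.29), Cyp27a1 (2.19), Lgals3 (2.07), Fos (2.01), Klf9 (1.97), Hmox1 (1.87), Areg (1.86), Slc15a1 (1.73), Jun (1.69), Map3k12 (1.56), Abcc2 (1.56), Muc3 (1.46), Sult1a1 (1.33), Dmbt1 (1.33), Hbegf (1.29), Errfi1 (1.27), Egr1 (1.25), Klf4 (1.07), Gclm (0.82) and Eln (0.76). They were negative for Mcpt4 (-3.73), Vch (-3.40), Dio1 (-3.05), Mcpt1 (-2.93), Ccl11 (-2.41), Afp (-2.22), Tcf21 (-1.98), Ppil3 (-1.76), Spp1 (-1.63), Lum (-1.57), Hsd17b2 (-1.27), Tvp23b (-1.21), Mrps14 (-1.11), H2az1 (-0.93), Stmn1 (-0.93) and Dbi (-0.92). Of these 38, the tests for Ly6al, Hmox1, Jun, Map3k12, Eln, Tvp23b, H2az1 and Dbi were no longer past the threshold without the 2 breast-fed arrays that had lost probe sets.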

How the results depend on the processing

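Against unfed, the count of 1014 calls was 471 within accession run 1, 5 within run 2 and 1812 with array weights, and 588 to 1191 with each array left out. It stayed within 1.5 times of 1014 under 2 scalings, 2 pseudocounts, 2 filters on dim probe sets, 1 probe set per gene, no intensity trend, the run as a term and fits on fewer arrays (694 to 1408). Against late breast-fed, the count of 373 was 129 with the run as a term, 62 within run 1, 11 within run 2, 143 in a fit on only the groups compared, 190 (90 higher and 100 lower) without the 2 breast-fed arrays that had lost probe sets, 248 with 1 probe set per gene, and 226 to 424 with each array left out. Day 4 against day 3 gave 0 calls, and 0 to 3 with an array left out. Whether replicate numbers pair the pups was not settled. With the replicate block the counts were 834 (384 higher and 450 lower) against unfed, 364 against breast-fed and 0 between the days. Of 113 named genes called against unfed, 74 kept the call with each single array left out, 99 at the deposited scaling, 96 with a common median, 93 with the run as a term and 101 with the replicate block. The 93 include the 28 leading genes, which were chosen by being called with the run as a term, so their part of that count was fixed in advance. Their choice by groups that do not overlap also favours calls that last under the other settings.

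The log2 differences that changed sign were all of genes not called. Tnf (-0.09) was 0.19 at the deposited scaling and 0.019 with a common median. Il10 (0.13) was -0.34 within run 1 and -0.13 within run 2, and -0.010 to 0.31 with an array left out. Nos2 (-0.19) was 0.13 at the deposited scaling and 0.12 with the replicate block, and -0.58 to 0.14 with an array left out. Ptgs2 (0.06) was -0.064 with a pseudocount of 2, -0.043 with the run as a term, -0.22 within run 1, -0.14 within run 2, -0.083 with the replicate block, -0.32 with array weights, and -0.26 to 0.42 with an array left out. Fcgrt (-0.01) was 0.11 with the run as a term, 0.10 within run 2, 0.17 with array weights, and -0.26 to 0.25 with an array left out. Slc10a2 (-0.01) was 0.28 at the deposited scaling, 0.044 with a pseudocount of 32, 0.013 with the run as a term, 0.37 within run 2, 0.19 with array weights, and -0.26 to 0.14 with an array left out. The causes were not tested.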
